A study of Homo sapiens with 6 samples.

Results

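The genes described here are the 10 AP-1 and immediate early genes *FOS*, *FOSB*, *FOSL1*, *FOSL2*, *JUN*, *JUNB*, *JUND*, *EGR1*, *IER2* and *IER3*, chosen by their symbols in the table of read counts. All 10 were found among its 60480 gene identifiers, and all 10 were among the 19778 genes that passed a filter on low counts and were tested. The counts come from poly(A) RNA-seq of OE-19 cells, a line from an adenocarcinoma of the esophagogastric junction (AEG), grown in RPMI1640 with fetal bovine serum. The 3 control libraries are titled shControl and labelled as a control knockdown, but appear as Puro in their descriptions and in the count table, and what construct they carry is not given in the sources used here. The 3 libraries with the m6A reader IGF2BP3 knocked down are labelled shIGF2BP3 (IGF2BP3 KD). All 6 libraries come from this single line, and the sources used here do not say whether replicates were separate cultures, whether the KD libraries carry the same hairpin, or when cells were last fed before harvest. The p-values therefore measure the spread between these libraries, which may be technical, and in bulk RNA a smaller share of expressing cells cannot be told apart from less RNA per cell.

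AP-1 is a dimer of basic leucine zipper proteins. JUN proteins (JUN, JUNB, JUND) pair with each other or with FOS proteins (FOS, FOSB, FOSL1, FOSL2), while FOS proteins need a JUN partner to bind DNA. Many of these genes are immediate early genes, which growth factors, serum and stress switch on within minutes without new protein synthesis, and whose mRNAs are usually short-lived. In epithelial cancers AP-1 acts downstream of the MAP kinase pathways on genes for proliferation, invasion and survival. EGR1 is a zinc finger transcription factor, IER2 a nuclear protein and IER3 a regulator of cell survival, and all are induced by the same signals.

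Sequencing depth was 58997971 to 70026203 counts in the control libraries and 53453621 to 63043342 in the IGF2BP3 KD libraries. *IGF2BP3* itself had 6532 to 7416 counts in the control libraries and 777 to 794 counts in the IGF2BP3 KD libraries, which is -3.03 on the log2 scale (standard error 0.06). All 10 epithelial marker genes looked up were expressed. Of 20 fibroblast, blood and endothelial markers, 7 passed the filter on low counts. The defining markers *COL1A2*, *LUM* and *CD3E* had 0 counts in each library, and *PTPRC* had at most 8. The summed fibroblast markers stood at 21.2 to 24.5 CPM in control libraries and 29.7 to 34.4 CPM in IGF2BP3 KD libraries, most of it *COL1A1*, which rose by 0.50 on the log2 scale. The summed blood cell markers ranged from 2506 to 2734 CPM in control and from 2543 to 2616 CPM in IGF2BP3 KD libraries. Nearly all of this was *LYZ*, with means of 2548 CPM in control and 2534 CPM in IGF2BP3 KD libraries, not called. *CD68* among these markers rose by 0.54. The part of these markers in the results below was not tested.

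Knockdown of *IGF2BP3* went with lower mRNA of all 3 JUN family genes and of *FOSL2*. These 4 of the 10 genes were called lower and 0 were called higher, where a call means a p under 0.05 from the edgeR quasi-likelihood model after Benjamini-Hochberg adjustment over 19778 genes. Over all tested genes 10.6% were called lower and 9.87% higher, 20.4% in either direction. Among the 13753 tested coding genes with a 3′ UTR of at least 50 bases, the kind of gene that all 10 are, 14.5% were lower and 13.1% higher. At an unadjusted p under 0.05 the same 4 genes were lower and 1, *FOS*, was higher, against 15.3% lower and 15.5% higher of all tested genes. DESeq2 also called *FOS* higher. The median log2 fold change of the 10 genes was -0.10, against 0.01 for all tested genes. The groups were without overlap in 5 of the 10 genes, against 35.8% of all tested genes. The 10 genes were chosen with earlier results of these data known, so these shares are a description. Of the 4 calls, those of *JUN* and *FOSL2* remained in each fit that left out 1 library, while those of *JUNB* and *JUND* lay close to the threshold.

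**Figure D1:**
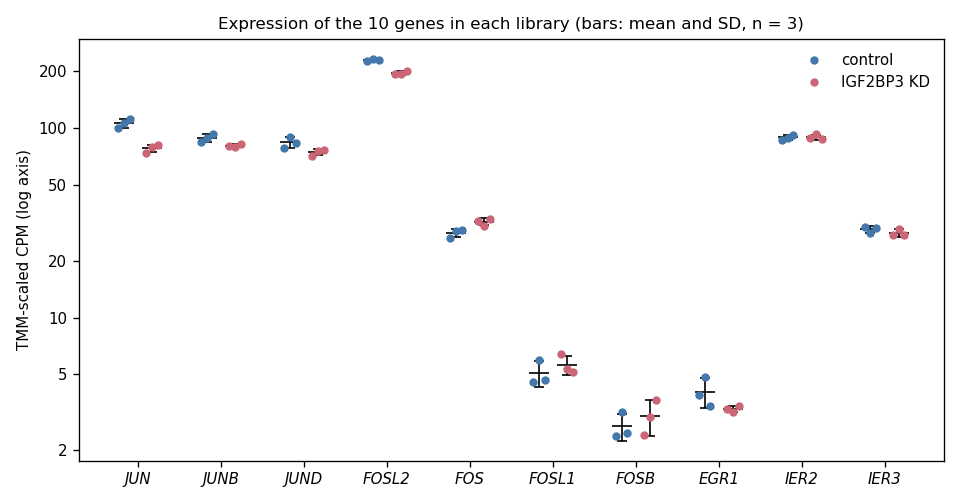
TMM-scaled CPM of each gene in the 3 control (blue) and 3 IGF2BP3 KD (red) libraries on a log axis, with the mean and SD. *FOSL2* is the most abundant by this measure, at 230.2 CPM in control cells, and the separation of the groups is widest for *JUN*.

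*JUN* (ENSG00000177606), the founding AP-1 subunit, was read 6861, 7451 and 6591 times in the control libraries, given in replicate order here and below. In the IGF2BP3 KD libraries it was read 4011, 4961 and 5121 times. Scaled for depth, these were 100.2, 107 and 113 CPM in control libraries and 74.3, 79.9 and 81.2 CPM in IGF2BP3 KD libraries. Every IGF2BP3 KD library lay below every control library, with a gap wider than the range within either group. *JUN* fell by 26.3%, from 107 ± 6.19 to 78.5 ± 3.68 CPM (SD, n = 3). The log2 fold change was -0.44 (standard error 0.05, 95% interval -0.55 to -0.33, edgeR adjusted p = 1.2e-04). This exceeds the median change of the genes called lower, whose size was 0.28 on the log2 scale. *JUN* has no intron in its main transcript, sits on chromosome 1 of hg38 from 58776845 to 58784048, minus strand, and shares no exonic base with another gene of GENCODE v44.

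*JUNB* (ENSG00000171223) and *JUND* (ENSG00000130522), the other intronless JUN genes, changed less than *JUN*. JUNB is a weaker activator than JUN and can oppose it, and JUND is the JUN protein most evenly expressed in resting cells. *JUNB* had 85.2, 88.6 and 93.2 CPM in control libraries and 80.7, 79.3 and 82.3 CPM in IGF2BP3 KD libraries. *JUND* had 78.6, 90.5 and 84.2 CPM in control libraries and 71.9, 75.9 and 77.3 CPM in IGF2BP3 KD libraries. For both genes the groups did not overlap, but the gap between the lowest control and the highest IGF2BP3 KD library was smaller than the range within the control group. The log2 fold change of *JUNB* was -0.14 (standard error 0.04, edgeR adjusted p = 0.044). That of *JUND* was -0.17 (standard error 0.06, edgeR adjusted p = 0.04999).

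Leaving out 1 library at a time ended both calls in 5 of 6 fits, and they held only without control replicate 1. Without control replicate 2, control replicate 3, or IGF2BP3 KD replicate 1, 2 or 3, the adjusted p of edgeR's test ranged from 0.0685 to 0.167 for *JUNB*, with log2 fold changes from -0.16 to -0.11. In the same fits it ranged from 0.0700 to 0.186 for *JUND*, with log2 fold changes from -0.20 to -0.12. *JUNB* shares 259 exonic bases with *HOOK2* on the opposite strand, so counts from these bases are uncertain if reads were counted without strand. *HOOK2* had a log2 fold change of 0.04 and was not called. *JUNB* lies on chromosome 19 from 12791486 to 12793315 and *JUND* on chromosome 19 from 18279694 to 18281622.

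**Figure D2:**
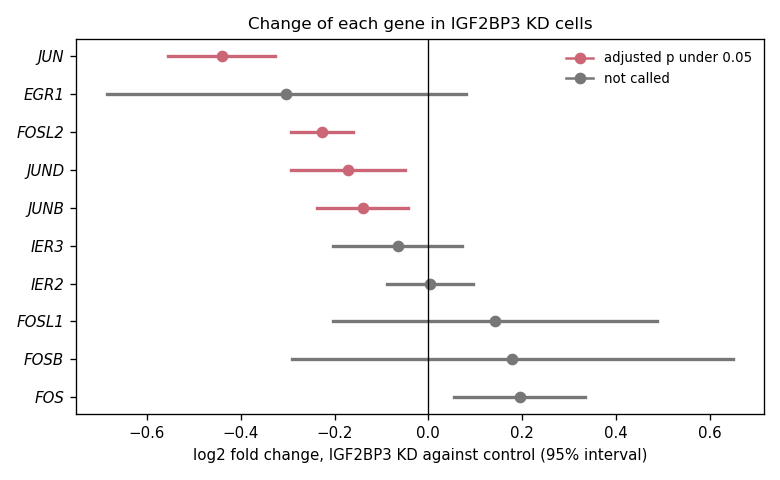
Log2 fold change of each gene in IGF2BP3 KD against control cells with its 95% interval, in order of the estimate, red where the adjusted p is under 0.05. The intervals of *JUN*, *FOSL2*, *JUND* and *JUNB* lie below 0, that of *FOS* lies above 0 although its adjusted p is 0.0511, and those of *EGR1*, *FOSL1* and *FOSB* are the widest.

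Within the FOS family *FOSL2* and *FOS* had estimates of opposite sign. *FOSL2* (ENSG00000075426), which encodes FRA-2, a FOS protein without the strong activation domain of FOS, had 227, 234 and 229.8 CPM in control libraries. It had 194, 195 and 202 CPM in IGF2BP3 KD libraries. The 3 values of each group lay close together, and the groups were well apart. *FOSL2* fell by 14.5%, or -0.23 on the log2 scale (standard error 0.03, edgeR adjusted p = 2.9e-04). It lies on chromosome 2 from 28392448 to 28417317.

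*FOS* (ENSG00000170345), the prototype immediate early gene, had 26.4, 28.8 and 28.97 CPM in control libraries and 32.4, 30.5 and 33.3 CPM in IGF2BP3 KD libraries. Each IGF2BP3 KD value was above each control value. The log2 fold change was 0.19 (standard error 0.06, 95% interval 0.06 to 0.33), and the edgeR adjusted p of 0.0511 just missed the threshold. With DESeq2 the adjusted p was 0.0443, with at least 10 counts required in every library it was 0.0453, with library totals as the only scaling 0.0357, and with GC trends taken out 0.0360. *FOS* was not called in any of the 6 fits that left out 1 library, where the adjusted p ranged from 0.0549 to 0.182. It lies on chromosome 14 from 75278826 to 75282230.

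*FOSL1* and *FOSB* were expressed at low levels and did not pass the test. *FOSL1* (ENSG00000175592), which encodes FRA-1 and is tied to invasion in many carcinomas, had 4.57, 6.0 and 4.70 CPM in control libraries. In IGF2BP3 KD libraries it had 6.39, 5.32 and 5.16 CPM, which overlap the control values. *FOSB* (ENSG00000125740) had 161, 221 and 144 counts in control libraries and 129, 185 and 231 counts in IGF2BP3 KD libraries. The log2 fold changes were 0.14 for *FOSL1* (95% interval -0.20 to 0.49) and 0.18 for *FOSB* (95% interval -0.29 to 0.65), so a change in either direction of the size seen in *FOSL2* lies within the interval of *FOSB*. For *FOSL1* the interval reaches -0.20, short of the -0.23 of *FOSL2*.

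*EGR1*, *IER2* and *IER3* did not pass the test. *EGR1* (ENSG00000120738, chromosome 5, 138465479 to 138469303) had 268, 338 and 200 counts in control libraries and 177, 197 and 216 counts in IGF2BP3 KD libraries. In CPM these were 3.91, 4.85 and 3.415 against 3.28, 3.17 and 3.43, and IGF2BP3 KD replicate 3 lay just above control replicate 3. Its log2 fold change of -0.30 had a 95% interval from -0.68 to 0.08, and it was -0.16 without control replicate 2, the highest of the 6 libraries. *IER2* (ENSG00000160888, chromosome 19, 13150411 to 13154911) was level, with 89.6 ± 2.61 CPM in control and 89.8 ± 2.78 CPM in IGF2BP3 KD cells (SD, n = 3). Its 95% interval ran from -0.09 to 0.10 on the log2 scale, which leaves out a fall the size of that of *JUNB*. *IER3* (ENSG00000137331, chromosome 6, 30743199 to 30744548) had 29.3 ± 1.19 CPM in control and 27.97 ± 1.33 CPM in IGF2BP3 KD cells, and a log2 fold change of -0.06 with a 95% interval from -0.20 to 0.07. The annotated antisense genes that share exonic bases with *IER2* and *IER3* had at most 10 counts in any library.

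Divided by the exonic length of each gene, the levels in control cells followed the order *JUNB*, *JUND*, *FOSL2*, *JUN*, *IER2*, *IER3*, *FOS*, *FOSL1*, *EGR1* and *FOSB*. *JUNB* stood at 48.6 ± 2.18, *FOS* at 8.80 ± 0.443 and *FOSB* at 0.479 ± 0.0804 CPM per kilobase (SD, n = 3). The ranges over the 3 control libraries overlapped between *JUNB* and *JUND* and between *JUN* and *IER2*, so these neighbours did not differ beyond their spread. In IGF2BP3 KD cells *IER2* ranked above *FOSL2*, without overlap, and the range of *JUN* overlapped that of *IER3*. With the length of the main transcript in place of all exons, *IER2* moved up to the third place in control cells and overlapped *JUND*, which had 43.8 ± 3.09 CPM per kilobase on both lengths. *FOSL2* and *JUN* then also overlapped in control cells. In IGF2BP3 KD cells *IER2* then ranked above *JUND*, without overlap, and its range overlapped that of *JUNB*.

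The summed JUN family mRNA was 122 ± 5.95 CPM per kilobase in control and 105 ± 2.81 CPM per kilobase in IGF2BP3 KD cells (SD, n = 3), and the summed FOS family mRNA was 44.1 ± 1.33 and 41.1 ± 0.942. The FOS family mRNA thus consisted largely of *FOSL2*, and the make-up of both families shifted. *FOSL2* made up 74.0%, 71.9% and 72.7% of FOS family mRNA in control replicates 1, 2 and 3, and 65.9%, 67.8% and 67.0% in the IGF2BP3 KD replicates. The share of *FOS* was 19.9% ± 0.623 in control and 24.5% ± 0.566 in IGF2BP3 KD cells. The share of *JUN* in JUN family mRNA was 24.1% ± 0.549 and 20.7% ± 0.483. For each of these 3 shares the groups did not overlap, as follows from the values of the single genes.

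**Figure D3:**
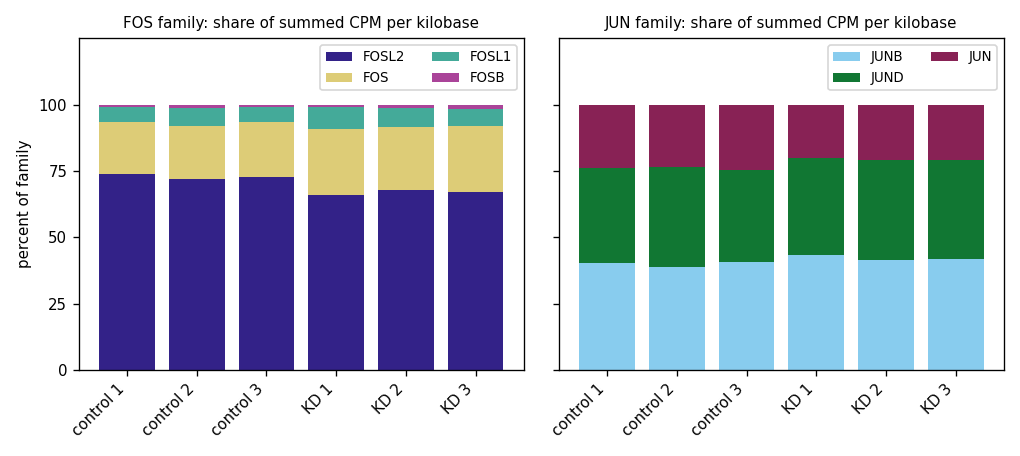
Share of each gene in the summed CPM per kilobase of the FOS family (left) and the JUN family (right), one bar per library. The *FOSL2* share is near 73% in control and 67% in IGF2BP3 KD libraries, and the *FOS* share is larger in each IGF2BP3 KD library.

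The ratio of *FOS* to *JUN* mRNA, picked after the values were seen, brings these changes together. Per kilobase of exons it was 0.3001, 0.306 and 0.293 in control libraries and 0.497, 0.435 and 0.467 in IGF2BP3 KD libraries. The ratio was 1.56-fold higher in IGF2BP3 KD cells, and the groups did not overlap. It sets the gene with the lowest against the gene with the highest log2 fold change of the 10, so its separation follows from that choice. An exact permutation test in both directions gave p = 0.1. This is the smallest value that 3 libraries per group allow, so the test could not reach 0.05.

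The genes whose pattern over the 6 libraries was most like that of *JUN*, the member with the smallest p, were looked for among 9856 genes at a mean level of 10 CPM or more. Likeness was the root mean square difference in log2 CPM after each gene was centred on its mean. The nearest were *UHRF1*, *MICALL1*, *PPP1R8*, *AJUBA* and *NT5C3B*, at 0.03 to 0.04 from *JUN*. Their log2 fold changes lay between -0.46 for *UHRF1* and -0.40 for *MICALL1*, values that the choice by likeness to *JUN* largely fixes. Among the 10 genes *FOSL2* was nearest to *JUN*, at 0.12, and *FOSB* was farthest, at 0.36.

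The promoters are shown because factors activated by the pathways above bind known elements there, and because AP-1 acts on some of its own genes. RefSeq promoter sequences (GRCh38.p14, from 250 bases before to 50 bases after the start) were found for 8 of the 10 genes, all but *FOSL1* and *IER3*. Searched on both strands were TGANTCA (the AP-1 or TPA response element), TGACGTCA (the cAMP response element), TGACATCA (which differs from it by a base), TATAAA (the TATA box), CCAAT (bound by NF-Y) and the CArG box bound by SRF. Of 35116 promoters of this length, 7.71% hold TGANTCA, 1.85% TGACGTCA, 2.61% TGACATCA, 1.29% a CArG box, 11.5% TATAAA and 34.6% CCAAT. Shown here, with the element in capitals, are the matches to AP-1, cAMP and SRF elements, 30 bases each along the strand of the gene.
JUN, chr1:58784096-58784125, minus strand: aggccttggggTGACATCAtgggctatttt
JUND, chr19:18281804-18281833, minus strand: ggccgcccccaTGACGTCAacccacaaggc
FOSL2, chr2:28392851-28392880, plus strand: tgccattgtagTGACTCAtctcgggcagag
EGR1, first CArG box, chr5:138465364-138465393, plus strand: gccggtcctgCCATATTAGGgcttcctgct
EGR1, second CArG box, chr5:138465386-138465415, plus strand: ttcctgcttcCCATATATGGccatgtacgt

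The elements began 67 bases before the start in *JUN*, 200 bases before it in *JUND*, and 105 and 83 bases before it in *EGR1*, while that of *FOSL2* lay just after the start. The starts are those of RefSeq, and for *FOSL2* the RefSeq start lies 410 bases inside the GENCODE gene given above, while for the other 7 genes they differ by at most 2 bases. *JUN*, *JUND* and *FOSL2*, which each hold an element of the AP-1 or cAMP type in this window, were among the 4 genes called lower. Of the words that differ from TGACGTCA by a base, only TGACATCA was searched, so this grouping depends on the words chosen. The share of called genes among all promoters with these elements is not given here. The part of these elements in the calls was not tested. *JUNB*, also called lower, holds TATAAA and, like *JUN* and *JUND*, the CCAAT word here, and *FOS* and *FOSB* hold TATAAA. *IER2* holds none of these words in this window. These matches are letters in a window and were not tested for binding. Only exact words from 250 bases before to 50 bases after the start were looked for. An element that lies farther away or departs from these words is missed, in *FOS* as in the other genes.

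The 3′ ends of these mRNAs are shown because AU-rich elements there mark them for rapid decay. In the 3′ UTR of the main GENCODE v44 transcript, the AU-rich word TATTTAT was found in 7 of the 10 genes, against 32.1% of 19195 coding genes with a 3′ UTR of at least 50 bases. *IER3* held it 4 times, *FOS* and *FOSL2* 2 times each, and *JUN*, *JUND*, *FOSB* and *FOSL1* once. *JUNB*, *EGR1* and *IER2* lacked it. The shorter word ATTTA was found in 9 of the 10 genes, against 68.7% of these coding genes. *JUNB* held ATTTA 2 times, *EGR1* 1 time and *IER2* 0 times. Genes with and without TATTTAT were found both among the genes called lower and among the rest. Of the tested coding genes with TATTTAT 18.4% were called lower and 12.7% higher, against 12.4% and 13.3% of those without it. The median log2 fold changes were -0.02 and 0.01, and the length of the 3′ UTR was not taken into account.

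Words of 7 bases whose genes moved in these libraries were also looked up. GATTACT and ACACATC were picked on the same contrast, so their presence is a description and no independent evidence. Among tested coding genes with GATTACT and without ACACATC in the 3′ UTR, 323 of 864 (37.4%) were called lower. Among those with ACACATC and without GATTACT, 347 of 1120 (31.0%) were called higher. With neither word, 13.2% were lower and 11.97% higher. The length of the 3′ UTR was not taken into account here either. Of the 10 genes, *JUN* alone holds GATTACT and *FOS*, which was not called, alone holds ACACATC. These are the genes with the lowest and the highest log2 fold change of the 10. As the words were picked on this contrast, the match is a description only. The sites are given with 30 bases each, the word in capitals, along the strand of the mRNA, and the AU-rich sites of *FOS* are set beside them.
JUN, chr1:58781506-58781535, minus strand: tgatgaaagctGATTACTgtcaataaacag
FOS, chr14:75281487-75281516, plus strand: agagaggagaaACACATCttccctagaggg
FOS, first AU-rich word, chr14:75282060-75282089, plus strand: tgtttttaattTATTTATtaagatggattc
FOS, second AU-rich word, chr14:75282084-75282113, plus strand: ggattctcagaTATTTATatttttatttta

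*FOSL2*, *JUNB* and *JUND* were called lower and hold neither GATTACT nor ACACATC in the 3′ UTR. Among the genes of the AP-1 lists described next, 5 of 9 with GATTACT alone were lower and 1, *RPS6KA3*, was higher. Of 11 with ACACATC alone, 3 were higher and 2 were lower, one of them *JDP2* at -0.68, among the largest falls in the lists. With neither word, 20 of 88 were lower and 7 higher, and with both words, 1 of 4 was lower and 0 were higher. The part of either word in the change of *JUN* or *FOS* was not tested.

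Genes around AP-1 were read from 6 lists with 127 distinct genes, of which 112 were tested. After knockdown, 28 of them (25%) were lower and 11 (9.82%) higher, against 10.6% and 9.87% of all tested genes and 14.5% and 13.1% of the tested coding genes. Their median log2 fold change was -0.07, against 0.01 for all tested genes. The lists share some genes, and no set test was run. They were chosen with earlier results of these data known, so these shares are a description and no independent evidence.

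Among the other dimer partners of AP-1 proteins, 3 of 11 tested genes were lower and 1 was higher. The lower ones were *JDP2*, a repressor that pairs with JUN, *ATF3*, a stress-induced partner of JUN, and *MAFF*, a small MAF protein. *JDP2* went from 33.6 ± 0.398 to 21.0 ± 1.67 CPM and *ATF3* from 11.0 ± 0.861 to 6.90 ± 0.642 CPM (SD, n = 3), log2 fold changes of -0.68 and -0.67. Both fell further than *JUN*. *MAFF* had -0.36 with groups that overlapped, and its call was lost without control replicate 2 or 3 or IGF2BP3 KD replicate 1, 2 or 3, with values from -0.42 to -0.26. *ATF2* and *MAFK* had log2 fold changes of 0.00.

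Of 30 tested immediate early genes outside the 10, 9 were lower and 1 was higher. The largest falls were in *CCN2*, a secreted matricellular protein and target of SRF and YAP, at -0.84 (standard error 0.09), *ATF3* at -0.67, the polo-like kinase *PLK2* at -0.60 and *IER5* at -0.50. *IER5* went from 51.4 ± 1.48 to 36.4 ± 1.08 CPM (SD, n = 3). *PLK2* was not called without control replicate 3, IGF2BP3 KD replicate 2 or IGF2BP3 KD replicate 3, where its value lay between -0.58 and -0.49. *KLF6*, a zinc finger factor, rose from 60.1 ± 3.59 to 72.2 ± 0.645 CPM. Without control replicate 1 or IGF2BP3 KD replicate 2 the higher genes of this list numbered 2. The other 20 did not pass the test, among them the phosphatase gene *DUSP1* at -0.23, *NR4A1* at -0.05, *KLF4* at 0.00 and *MYC* at -0.08, which were picked with their values in view. *EGR4* at 0.78, *ARC* at 0.64, *NR4A2* at 0.46, *KLF2* at 0.40, *CSRNP1* at 0.20 and *RHOB* at 0.15 also did not pass. Each of these genes was higher in every IGF2BP3 KD library than in any control library. Groups without overlap, in either direction, were found in 35.8% of all tested genes. *EGR4* was barely expressed, with means of 0.37 CPM in control and 0.64 CPM in IGF2BP3 KD libraries. The standard error of its log2 fold change was 0.39. *EGR2*, *NR4A3* and *NPAS4* were under the filter, with at most 26 counts in any library.

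**Figure D4:**
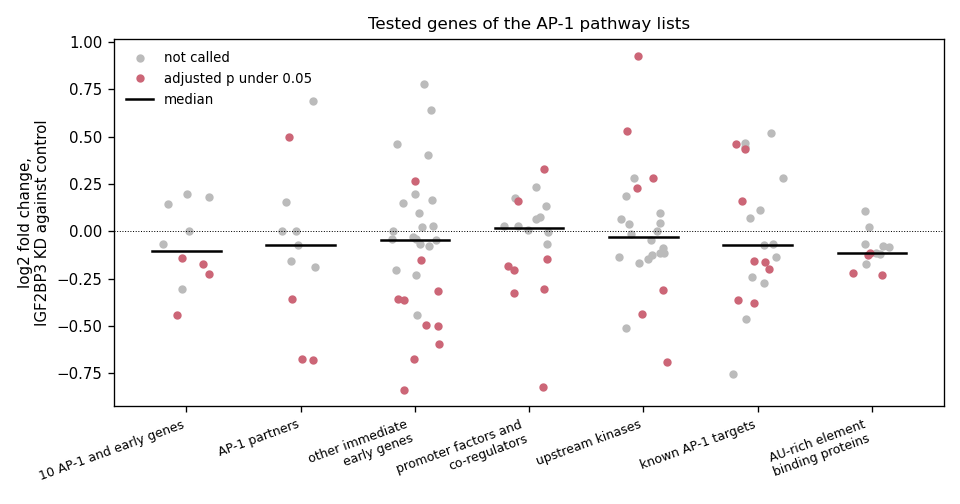
Log2 fold change of the 10 genes and of the tested genes of each list, red where the adjusted p is under 0.05, with a line at the median. Called genes lie on both sides of 0 in the lists of partners, other immediate early genes, promoter factors, kinases and targets, and below 0 among the 10 genes and the AU-rich element binding proteins.

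Factors that act at promoters of immediate early genes were mixed, with 6 of 18 lower and 2 higher. The cAMP pathway genes *CREM*, *CRTC2* and *ATF1* had log2 fold changes of -0.82, -0.33 and -0.31, and the SRF cofactor *MRTFA* had -0.21. Other cAMP pathway genes of the list were not called and had estimates above 0. These were *CREB1* at 0.18, *CRTC3* at 0.14, *CREBBP* at 0.06 and *CRTC1* at 0.01. The co-activator gene *EP300* was called lower at -0.15. *SRF* itself was at 0.03 and not called. *ELK3*, an ETS partner of SRF, and *YY1* rose by 0.33 and 0.16. Without IGF2BP3 KD replicate 1 the lower genes numbered 3, and without that library, control replicate 2 or IGF2BP3 KD replicate 2 the higher genes numbered 1. The call of *CREM* was lost without control replicate 1 or IGF2BP3 KD replicate 1 or 2, with values from -0.76 to -0.66. That of *MRTFA* was lost without control replicate 2 or 3 or IGF2BP3 KD replicate 1 or 3, with values from -0.21 to -0.18, and that of *ELK3* without control replicate 1 or 2 or IGF2BP3 KD replicate 1 or 2, with values from 0.26 to 0.33.

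Of 24 kinases upstream of AP-1, 3 were lower and 4 were higher. *MAP2K1*, which encodes MEK1, fell by 0.44 on the log2 scale, from 99.9 ± 1.71 to 73.8 ± 2.35 CPM, *MAPK14*, which encodes p38 alpha, had -0.31, and the chromatin kinase gene *RPS6KA5* had -0.69. The RSK genes *RPS6KA2* and *RPS6KA3* rose by 0.93 and 0.28, and the p38 kinase gene *MAP2K3* by 0.23. The JNK genes *MAPK8* and *MAPK9* were at -0.11 and 0.05, neither of them called.

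Of 21 tested genes known as AP-1 targets, 5 were lower and 3 were higher. *MMP1*, a collagenase, fell from 85.3 ± 4.63 to 65.5 ± 1.21 CPM and *VEGFA* from 606 ± 18.5 to 472 ± 13.1 CPM (SD, n = 3), log2 fold changes of -0.38 and -0.36. *HMGA1* and *CCND1*, which encodes cyclin D1, had -0.20 and -0.16. *TIMP1*, an inhibitor of metalloproteinases, and *HMOX1*, heme oxygenase, rose by 0.46 and 0.43. The other 9 listed targets, among them *IL6*, *MMP3* and *PLAU*, had at most 18 counts in any library and were not tested.

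Of 12 genes for proteins that bind AU-rich elements, edgeR called 4 lower and 0 higher. At an unadjusted p under 0.05 1 of them were higher, DESeq2 called 0 higher, and library totals as the only scaling gave 1. *ZFP36L2*, which encodes a decay factor, had a log2 fold change of -0.23. *CELF1* and *HNRNPD* had -0.13 and -0.11, and their calls were lost without control replicate 2 and without IGF2BP3 KD replicate 1 or 3, *CELF1* also without control replicate 3 and *HNRNPD* also without control replicate 1 or IGF2BP3 KD replicate 2. Across these fits *CELF1* lay between -0.13 and -0.11 and *HNRNPD* between -0.13 and -0.07. The list held 2 lower genes without IGF2BP3 KD replicate 3 and 8 with DESeq2. *ZFP36*, itself an immediate early gene, was at 0.02.

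**Figure D5:**
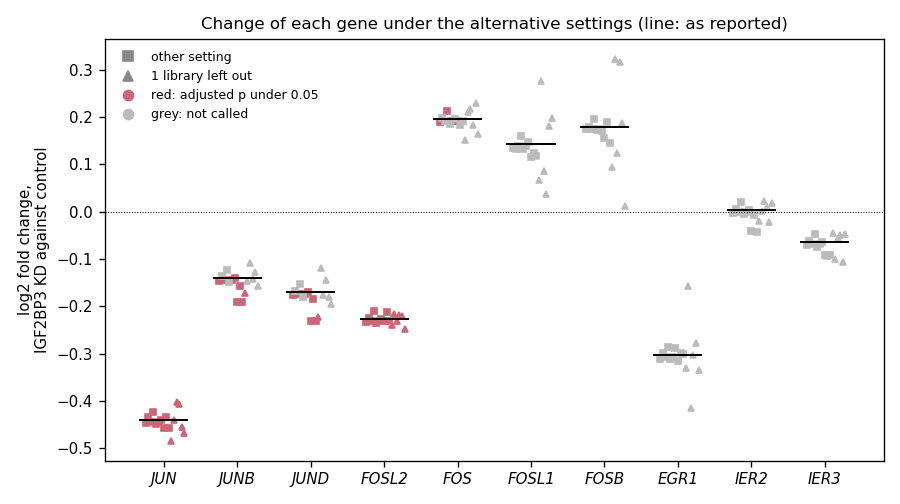
Log2 fold change of each gene under the alternative settings (squares) and with 1 library left out (triangles), red where the adjusted p is under 0.05, with a line at the reported value. *JUN* and *FOSL2* are red throughout, *JUNB*, *JUND* and *FOS* change side of the threshold, and *IER2* scatters around 0.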

How the data were processed

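Poly(A) RNA from 3 control and 3 IGF2BP3 KD OE-19 libraries was sequenced. The authors trimmed reads with fastp, used HISAT2 with the hg38 genome for alignment and obtained gene counts with featureCounts, and the deposited values are raw counts. Tool versions, annotation release and strand setting are not given in the sources used here. Libraries were prepared with a directional kit.

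Columns were assigned to libraries through the description of each sample, where the control libraries are called Puro and not shControl as in their titles. Of 60612 entries, 132 repeated ones were left out. Counts were tested with edgeR 4.0.16 (R 4.3.3): TMM scaling, filterByExpr (minimum count 10, minimum total 15), glmQLFit and glmQLFTest, and Benjamini-Hochberg adjustment over 19778 genes at 0.05. The script was also run on counts simulated with known changes from the means and dispersions that edgeR fitted. Such a run checks the code and not the fit of the model to these data. Levels between genes were compared as CPM per kilobase of exons (GENCODE v44). Chi-square per degree of freedom between libraries was 9.86 to 17.6 within groups and 46.3 to 58.2 between groups, so no library repeats another. Totals of 53453621 to 70026203 counts make 1 count worth 0.0144 to 0.0185 CPM.

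The 10 genes and the lists were chosen with earlier results of these data known. Named from each AP-1 list are called genes whose mean reached 1 CPM, at most 4 per direction, and the 5 genes most like the member with the smallest p. A few others are named after their values were seen. Some genes that this rule takes are not reported here. Alternatives were DESeq2 1.42.0, limma-voom (limma 3.58.1), RLE scaling, library totals only, other filters and thresholds, a replicate block and each library left out. Removal of trends on GC content or length (lowess span 0.3) was added after the data were seen. Sequences come from GENCODE v44 transcripts and RefSeq promoters. Figures used Python 3.11.15 and matplotlib 3.10.9.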

Additional observations from a re-analysis of the deposited data

How the results depend on the processing

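*IGF2BP3*, *JUN* and *FOSL2* kept their direction and their call in all fits run on them. Of the 10 genes, 4 were lower with DESeq2, RLE scaling, a minimum of 10 counts per library, the replicate block and the trends on GC content or length removed. The lower genes numbered 2 with limma-voom, library totals only, no low-count filter or an adjusted p under 0.01, and 0 where a log2 change of 0.5 or more was also asked for. They numbered 2 to 4 when single libraries were left out. The count of higher genes was 1 with DESeq2, library totals only, at least 10 counts in every library or the GC trend removed, in each case *FOS*, at 0.19, 0.21, 0.19 and 0.19. *JUNB* lost its call with limma-voom (-0.14), library totals only (-0.12) and no low-count filter (-0.15), and *JUND* with the same 3 settings (-0.17, -0.15 and -0.18). With a library left out, *JUNB* lay between -0.17 and -0.11 and *JUND* between -0.22 and -0.12. *IER2*, never called, turned below 0 with DESeq2 (-0.00275), RLE scaling (-2.29e-04), the unfiltered table (-0.00535), a minimum of 10 counts per library (-4.21e-04), the GC trend removed (-0.0418), also with the replicate block (-0.0422), and the length trend removed (-0.00791), and lay between -0.0226 and 0.0221 with a library left out. The causes of these shifts were not tested.

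At an adjusted p under 0.01, 1314 of all tested genes were lower and 1098 higher, and with a log2 change of 0.5 or more, 416 and 465. With the latter threshold 6 genes of the AP-1 lists were lower and 3 higher. Same-numbered control and IGF2BP3 KD libraries had correlated deviations from their group means of 0.01, -0.10 and 0.03, so the numbers were not taken to pair the libraries. With the replicate block 2026 of all tested genes were lower and 1875 higher. The block ended the calls of *MRTFA* (-0.21) and *ELK3* (0.33) and changed no call of the 10 genes. The 95% intervals of *FOSB*, *EGR1* and *FOSL1*, the genes with the fewest counts, are the widest of the 10.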
